A study of Mus musculus with 66 samples.

Results

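The testes of mice at day 18 after birth were compared with those of mice at day 14, an interval in which the leading spermatocytes of the first wave of spermatogenesis move from early to late pachytene. All samples titled for these days were taken, which gave 12 of the 66 arrays of the series: 6 arrays of day 18 and 6 arrays of day 14. The day 18 group is total testis RNA of BL/6-129 mice at day 18 postpartum, and the day 14 group is total testis RNA of BL/6-129 mice at day 14 postpartum. Both were isolated with TRIzol, and no treatment or mutation is given for either. Each day has 2 numbered samples on each of 3 types of oligonucleotide array, labelled A, B and C. The other arrays belong to 9 further ages between day 0 and day 56 and were used to estimate the spread. Whether the numbers of a day stand for single animals, pooled testes or repeats of 1 RNA is not given, so the p-values measure the spread between these samples, which may be technical.

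Pachytene is the long stage of meiotic prophase in which homologous chromosomes are fully paired along the synaptonemal complex and complete their crossovers. Transcription is low in early prophase and becomes high in the later pachytene stages, when spermatocytes make and store many messages for proteins of the future sperm, among them germ cell forms of metabolic enzymes, acrosomal proteins and parts of the flagellum. The X and Y chromosomes are packed into the sex body at this stage and are silenced. Somatic cells of the testis, such as Sertoli and Leydig cells, do not take part in meiosis and make up a smaller share of the organ as germ cells accumulate.

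Values are array signals, which the authors scaled to a mean of 125 on every array, so all changes are relative to the other signals of the array. Between 50.77% and 61.31% of the probe sets of these 12 arrays reached a signal of 50. The number of arrays limits the precision. Changes are differences of log2(signal + 16) between day 18 and day 14 with their standard error (SE, n = 2 samples per day). The added 16 makes the change of dim genes smaller than that of their signals. A gene was called when its adjusted p in limma was under 0.05 and its change was at least 2-fold on this scale. In whole testis RNA, fewer cells of a type and less RNA per cell cannot be told apart. Signals of a day are given below for sample 1 and then for sample 2.

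The 2 day 18 samples differed from each other more than the 2 day 14 samples did. Across probe sets, the 2 day 18 samples correlated at 0.921 on type A, 0.888 on type B and 0.895 on type C, against 0.958, 0.909 and 0.902 between the day 14 samples. Of the 13472 genes tested, 1312 (9.74%) differed by more than 2-fold between the day 18 samples, against 669 (4.97%) between the day 14 samples. The direction of the difference depended on the array type. Genes called higher at day 18 had the larger signal in sample 2 on type A and in sample 1 on types B and C, as detailed at the end. Because of this, sample 1 of one array type was not treated as the same RNA as sample 1 of another type, and the counts of called members of the gene lists are given with their range when single samples were left out.

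Between day 14 and day 18, 694 genes were called (5.15% of those tested), 572 of them higher at day 18 (4.25%) and 122 lower at day 18 (0.906%). In every one of the 572 higher genes and the 122 lower genes, both day 18 samples lay on one side of both day 14 samples. Among all genes tested, the samples failed to overlap in this way for 21.4% on the higher side and 30.3% on the lower side. The rises were larger than the falls: the median change was 1.83 among the higher genes and -1.22 among the lower genes, and 247 higher genes but 5 lower genes passed 4-fold. A change of more than 16-fold was reached by 24 higher genes. The median change of all genes tested was -0.09, and -0.01 when each array was scaled to its median.

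The rises were less dependent on single samples than the falls. Without day 18 sample 1, 459 genes were called higher and 291 lower, and without day 18 sample 2 these counts were 543 and 230. Of the 572 higher genes, 263 were called in both of these fits, against 12 of the 122 lower genes. Without day 14 sample 1, 305 genes were called higher and 27 lower, and without day 14 sample 2 the counts were 354 and 23. Through all 4 of these fits, 233 of the 572 higher genes and 3 of the 122 lower genes stayed called. These fits leave out the sample of one number on all 3 array types at once. Because the order of the day 18 samples turned round between types, their totals and the ranges given for gene lists join unlike omissions. No fit left out the day 18 sample farther from day 14 on every type, so the ranges can understate the dependence on it. Without day 18 sample 1, 273 genes were called higher and 269 lower on type A, against 81 and 13 on type B and 105 and 9 on type C. Without day 18 sample 2, the counts were 84 and 6 on type A, 273 and 130 on type B, and 186 and 94 on type C. With all samples they were 189 and 41 on type A, 200 and 36 on type B, and 183 and 45 on type C.

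The number of lower genes also depended on the spread, the scaling and the added constant. With each array scaled to its median in place of its mean, 608 genes were called higher and 52 lower, and with 64 added in place of 16, 49 were called lower. With the spread taken from days 14 and 18 only, 292 genes were called higher and 12 lower, and from days 10, 14, 18 and 20 the counts were 260 and 11. Of the 84 called genes that are named by rule, 28 lost the call with the spread of days 14 and 18, 31 with that of days 10 to 20, and between 13 and 32 when a sample was left out.

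**Figure D1:**
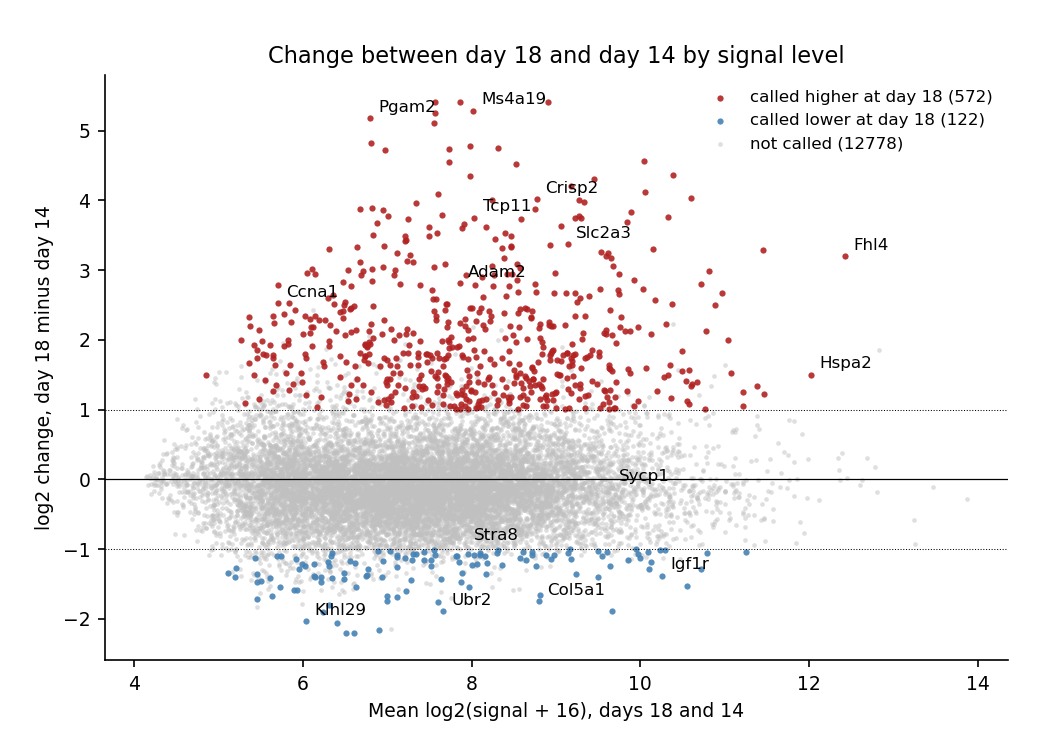
Change between day 18 and day 14 (log2, vertical axis) against the mean log2(signal + 16) of both days (horizontal axis) for the 13472 genes tested, with genes called higher in red, genes called lower in blue and the others in grey. The 572 rises reach above 5 on the log2 scale, while the 122 falls end near -2. Dotted lines mark a 2-fold change.

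A second probe set was measured for some of the called genes. Of the 216 higher genes with another probe set, 189 had a positive change in the brightest other probe set, and 96 of these changes were at least 2-fold. Of the 58 lower genes with another probe set, 44 had a negative change there, 8 of them at least 2-fold, and 1 had a rise of at least 2-fold. When only probe sets on another array type were considered, the sign was shared by 106 of 126 higher genes and by 34 of 46 lower genes. In the brightest probe sets of all 13472 genes tested, 5688 changes were positive and 7784 negative. A shared sign is therefore common without any link between probe sets, above all for falls, and these counts were not tested.

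The largest named rises were all over 16-fold. Pgam2, the muscle form of the glycolytic enzyme phosphoglycerate mutase, had a signal of 393 and 1082 at day 18, against 3.3 and 1.6 at day 14. Its change was 5.18 ± 0.32 (adjusted p = 1.37e-07). Both day 18 samples were far above both day 14 samples, and sample 2 was higher than sample 1 at day 18. Ms4a19, a member of a family of membrane-spanning proteins, had 3224 and 789 at day 18, against 29.5 and 21.5 at day 14, a change of 5.29 ± 0.81 (adjusted p = 0.000502). Catsperz, an accessory subunit of the CatSper calcium channel of the sperm tail, had 2756 and 1111 at day 18, against 41.1 and 86.6 at day 14, a change of 4.53 ± 0.49 (adjusted p = 2.08e-05). In both of these genes the samples of the 2 days did not overlap, and day 18 sample 1 was the higher one. Cmtm2b, a chemokine-like transmembrane family member, had 1964 and 597 at day 18, against 34.7 and 17.8 at day 14, with a change of 4.73 ± 0.42 (adjusted p = 3.13e-06). For Pebp4 and Pbp2, of the phosphatidylethanolamine-binding protein family, the changes were 4.56 ± 0.54 and 4.55 ± 0.51. Ccdc38 changed by 4.79 ± 0.68, Atp6ap1l by 4.73 ± 0.46, Rbakdn by 4.37 ± 0.49, Qrich2, a protein of the sperm flagellum, by 4.20 ± 0.49, and Pom121l2 by 4.13 ± 0.37. The genes named in this paragraph stayed called with any 1 of the 4 samples left out. A day 14 mean signal under 50 was found for 152 of the 572 higher genes, so their log2 changes on the shifted scale understate the ratio of their signals.

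Genes known from pachytene and diplotene spermatocytes formed the list with the largest median change. This list and the others below were chosen with earlier results of these data known. Their ranks and counts therefore describe them and are no test. Of 42 measured members, 30 were called higher and none lower, with a median change of 2.15 against -0.09 over all genes tested. The share called higher was 71.4%, against 4.25% of all genes tested. With single samples left out, 23 to 28 members were called higher. Crisp2, a cysteine-rich secretory protein of the acrosome and sperm tail, had a signal of 1235 and 2477 at day 18, against 101 and 84.3 at day 14, a change of 4.02 ± 0.55 (adjusted p = 0.000188). Tcp11, a testis protein linked to sperm function, had 609.9 and 1466 at day 18, against 46.1 and 66.1 at day 14, a change of 3.75 ± 0.30 (adjusted p = 1.26e-06). Neither gene's days overlapped, and on array type A, which carries both, day 18 sample 2 was the higher one in each. Hspa2, the chaperone that spermatocytes need to take the synaptonemal complex apart and to enter the meiotic division, was bright at both ages, with 8248 and 5895 at day 18, against 2317 and 2587 at day 14, and changed by 1.50 ± 0.29 (adjusted p = 0.00327). Ccna1, the A-type cyclin required for the first meiotic division, had 40 and 264 at day 18, against 4.4 and 7 at day 14. Its day 18 samples were 6.61-fold apart, yet both lay above the day 14 samples, and the change was 2.53 ± 0.46 (adjusted p = 0.00245). On type A, which holds 27 members of this list, day 18 sample 2 was above sample 1 in 27 of 27, with a median difference of -0.85 (sample 1 minus sample 2, log2). On types B and C the median difference was 0.85 and 0.49, with sample 1 the higher one in 4 of 5 and 7 of 10 members.

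Germ cell forms of metabolic enzymes were listed together with other genes, and this list rose in part. Among its members are general enzymes such as Cs and Glud1, the carrier Slc25a4 and the poly(A) polymerase Papolb. The transporters Slc2a3, Slc2a5 and Slc16a7 are members too. The counts and the median are of the whole list. Of 36 measured members of this list, 13 were called higher and none lower, with a median change of 0.60, and 8 to 11 were called higher and up to 2 lower with single samples left out. With all samples, the share called higher was 36.1%, against 4.25% of all genes tested. Pgk2, the autosomal retrogene copy of phosphoglycerate kinase, had a signal of 62.8 and 180.4 at day 18, against 9.2 and 7.1 at day 14, a change of 2.37 ± 0.36 (adjusted p = 0.000544). Pdha2, the retrogene copy of a pyruvate dehydrogenase subunit, had 892 and 993 at day 18, against 392 and 325 at day 14, a change of 1.36 ± 0.24 (adjusted p = 0.00213). Slc2a3, a glucose transporter of spermatogenic cells, had 1169 and 2784 at day 18, against 173 and 146 at day 14, a change of 3.38 ± 0.35 (adjusted p = 1.48e-05). All 3 genes kept their call with any 1 sample left out, and none of their signals overlapped between the days. Ldhc, the sperm form of lactate dehydrogenase, was already present at day 14, with 3996 and 6409 at day 18, against 771 and 506 at day 14. Its change was 2.99 ± 0.74 (adjusted p = 0.0214). The call was kept in 1 of the 4 fits that left out a sample, and the highest adjusted p among them was 0.173. Ldhal6b, a lactate dehydrogenase-like gene, had 11984 and 6380.5 at day 18, against 722 and 1075 at day 14 and a change of 3.29 ± 0.75 (adjusted p = 0.0124), with an adjusted p of up to 0.117 when a sample was left out.

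The list of somatic counterparts gave 1 call. It also holds genes that are not metabolic enzymes, such as Rbmx, Zfx, Cetn2, Hspa8 and Pabpc1. Of 28 measured members, 1 was called higher (3.57%, against 4.25% of all genes tested) and none lower. The median change of the whole list was -0.50. The called gene was Ldha, the muscle-type lactate dehydrogenase, with 1167 and 2141 at day 18, against 392 and 331 at day 14 and a change of 2.09 ± 0.29 (adjusted p = 0.000197). The X-linked forms that Pgk2 and Pdha2 were copied from were not called. Pgk1 had 154 and 144 at day 18, against 209 and 185 at day 14, a difference of -0.36 ± 0.31 (adjusted p = 0.58). Pdha1 had 105 and 36.7 at day 18, against 137 and 129.5 at day 14, a difference of -0.90 ± 0.40 (adjusted p = 0.208). When single samples were left out, up to 7 members of the somatic list were called lower.

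Genes of the acrosome, the secretory vesicle that caps the sperm head, and of egg binding were called higher in 17 of 41 measured members, with none lower and a median change of 0.90. The share called higher was 41.5%, against 4.25% of all genes tested. With single samples left out, 14 to 17 were called higher. The ADAM family of membrane proteins, several of which act on the sperm surface, gave some of the largest values. Adam2, which encodes fertilin beta, had 476 and 757 at day 18, against 82.6 and 61.9 at day 14, a change of 2.81 ± 0.22 (adjusted p = 1.26e-06). Adam3 had 229 and 921 at day 18, against 25.1 and 13.5 at day 14, a change of 3.78 ± 0.63 (adjusted p = 0.00107). In both, the day 18 samples were above the day 14 samples, and the day 18 samples of Adam3 were the wider apart. Adam5 changed by 4.0 ± 0.51 and Adam32 by 4.35 ± 0.46. Acr, which encodes the acrosomal protease acrosin, had 267 and 689 at day 18, against 16 and 65 at day 14, a change of 3.13 ± 0.47 (adjusted p = 0.000422). Dkkl1, an acrosomal protein related to the Dickkopf family, had 3574 and 1326 at day 18, against 143 and 153 at day 14, a change of 3.74 ± 0.34 (adjusted p = 3.32e-06). Acrv1, an acrosomal protein of spermatids, was below a signal of 50 on all 4 arrays, with 1.3 and 7.9 at day 18, against 4.3 and 6.2 at day 14.

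Genes of the axoneme, the microtubule core of cilia and of the sperm tail, made up the list with the most called members. Of 74 measured members, 39 were called higher and none lower, with a median change of 1.44, and 68 of the 74 changes were positive. The share called higher was 52.7%, against 4.25% of all genes tested. Between 20 and 33 were called higher when a sample was left out. Cetn1, a centrin of centrioles and ciliary bases, had a signal of 689.8 and 952 at day 18, against 57.8 and 47 at day 14, a change of 3.60 ± 0.29 (adjusted p = 1.26e-06). Wdr63, a component of inner dynein arms, had 1502 and 692 at day 18, against 75.9 and 102 at day 14, a change of 3.31 ± 0.47 (adjusted p = 0.000243). Meig1, a protein needed to build the sperm tail, had 624 and 1188 at day 18, against 83.6 and 94.1 at day 14, a change of 3.07 ± 0.44 (adjusted p = 0.000297). All 3 kept their call with any 1 sample left out, and the days did not overlap. Spag6l, a protein of the central pair apparatus, had 3474 and 1658 at day 18, against 175 and 326 at day 14 and a change of 3.24 ± 0.62 (adjusted p = 0.0035), with an adjusted p of up to 0.0661 when a sample was left out. Spata4 had 4771 and 2257 at day 18, against 200.1 and 283 at day 14 and a change of 3.70 ± 0.78 (adjusted p = 0.00768), with an adjusted p of up to 0.0808 when a sample was left out.

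Genes listed for the cells that follow meiosis were split. Of 41 measured genes listed for round spermatids, 11 were called higher and none lower, with a median change of 0.24, and 7 to 12 were called higher with single samples left out. With all samples, the share called higher was 26.8%, against 4.25% of all genes tested. Actl7b, an actin-like protein of spermatids, had 153 and 318 at day 18, against 14.3 and 20.6 at day 14, a change of 2.83 ± 0.36 (adjusted p = 9.07e-05). Pdcl2, a phosducin-like protein of spermatids, had 3347 and 1687 at day 18, against 222 and 388 at day 14 and a change of 2.95 ± 0.57 (adjusted p = 0.0037), with an adjusted p of up to 0.0683 when a sample was left out. Of 40 measured genes listed for elongating spermatids, 10 were called higher and none lower, with a median change of 0.31, and leaving out single samples gave 7 to 9 higher and up to 2 lower. With all samples, 25% of the elongating list was called higher, against 4.25% of all genes tested. The called genes of the elongating list are not all separate from those of the lists above. Pgam2, Tcp11 and Meig1 are in the pachytene and diplotene list as well, and Pgam2, Ldhal6b and Cyct in the germ cell isozyme list. Also in the pachytene and diplotene list are Pgk2, Pdha2, Slc2a3, Ldhc, Adam2, Adam3, Acr, Cetn1 and Spag6l, described above with other groups. The lists are thus not separate results. The nuclear proteins that replace histones in condensing spermatids were not called. Tnp1, transition protein 1, had 118 and 191 at day 18, against 143 and 125 at day 14, a difference of 0.16 ± 0.31 (adjusted p = 0.845). Tnp2 had 27.3 and 25.2 at day 18, against 30.5 and 33.1 at day 14, a difference of -0.18 ± 0.50 (adjusted p = 0.897). Prm2, protamine 2, had 6.7 and 3.4 at day 18, against 3.8 and 4 at day 14. Prm1 had 8.2 and 5.1 at day 18, against 46.1 and 35.5 at day 14, all below a signal of 50, and Akap4, a protein of the fibrous sheath of the tail, had 10.6 and 4 at day 18, against 2.3 and 1.6 at day 14. Odf1, of the outer dense fibres, had 53 and 84.1 at day 18, against 42.1 and 52.1 at day 14, a difference of 0.40 ± 0.28 (adjusted p = 0.476).

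**Figure D2:**
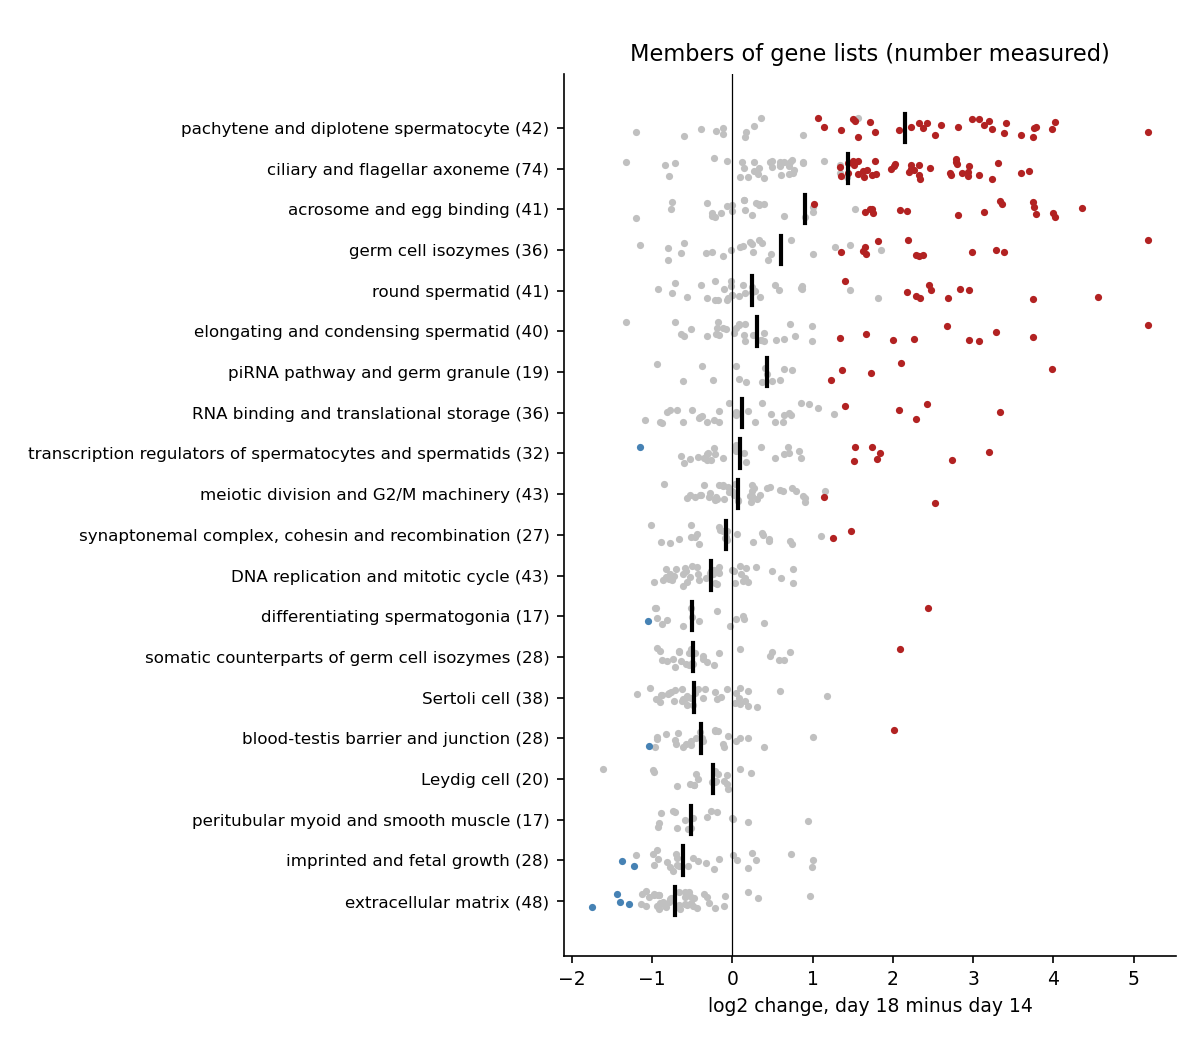
Change between day 18 and day 14 (log2, horizontal axis) of the measured members of 20 gene lists, 1 point per gene, with the number of members in parentheses; red points were called higher, blue points lower and grey points neither, and the black bar is the median. The median runs from 2.15 in the pachytene and diplotene list to -0.71 in the extracellular matrix list, and some genes are in more than 1 list.

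Among genes of RNA storage, 5 of 36 measured members were called higher and none lower, with a median change of 0.13. The share called higher was 13.9%, against 4.25% of all genes tested. Leaving out single samples gave 4 to 6 higher and up to 1 lower. Pabpc2, a testis copy of the poly(A)-binding protein, had 601 and 2019 at day 18, against 114 and 80.2 at day 14, a change of 3.33 ± 0.44 (adjusted p = 0.000139). Ybx3, a Y-box protein that binds and stores germ cell messages, had 1267 and 2654 at day 18, against 308 and 350.1 at day 14, a change of 2.43 ± 0.46 (adjusted p = 0.00319). Papolb, the testis poly(A) polymerase, had 118 and 200.1 at day 18, against 16.2 and 21.4 at day 14, a change of 2.29 ± 0.31 (adjusted p = 0.000162). In these genes the lowest day 18 signal was well above the highest day 14 signal. Ybx2, the germ cell Y-box protein MSY2, had 879 and 3073 at day 18, against 383 and 373 at day 14. Its change of 2.08 ± 0.48 (adjusted p = 0.0136) lost the call without day 18 sample 2, where it was 1.18 with an adjusted p of 0.182. The fifth gene, Khdrbs3, changed by 1.40 and was named after its value was seen.

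In the piRNA pathway, which silences transposons with small RNAs in germ granules, 5 of 19 measured members were called higher and none lower, with a median change of 0.43, and 3 or 4 were called higher with a sample left out. With all samples, the share called higher was 26.3%, against 4.25% of all genes tested. Tdrd6, a Tudor protein of the chromatoid body, had 4841 and 1328 at day 18, against 120 and 178 at day 14, a change of 3.98 ± 0.44 (adjusted p = 2.49e-05). Ddx25, a gonadotropin-regulated RNA helicase of spermatocytes and spermatids, had 952 and 1784 at day 18, against 343 and 247 at day 14, a change of 2.10 ± 0.26 (adjusted p = 7.68e-05). Both kept their call with any 1 sample left out. Tdrd7 had 1442 and 674 at day 18, against 393 and 351 at day 14, a change of 1.37 ± 0.26 (adjusted p = 0.00315), which stayed under an adjusted p of 0.05 with any 1 sample left out but was 0.83, under 2-fold, without day 18 sample 1. Pld6, a mitochondrial enzyme of the pathway, had 435 and 631 at day 18, against 134 and 161 at day 14 and a change of 1.73 ± 0.39 (adjusted p = 0.0123), with an adjusted p of up to 0.109 when a sample was left out. Gtsf1, named after its value was seen, changed by 1.23. Ddx4, the germ cell helicase known as MVH, was bright at both ages, with 1230 and 1133 at day 18, against 888 and 788 at day 14, a difference of 0.49 ± 0.30 (adjusted p = 0.399). Piwil1 was not measured.

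Transcription regulators of spermatocytes and spermatids were called higher in 7 of 32 measured members and lower in 1, with a median change of 0.10. These shares were 21.9% and 3.12%, against 4.25% and 0.906% of all genes tested. With single samples left out, 2 to 7 members were called higher and up to 1 lower. Tbpl1, a TBP-like factor needed in spermatids, had 341 and 562 at day 18, against 146 and 136 at day 14, a change of 1.53 ± 0.26 (adjusted p = 0.00121). Zfp35, a zinc finger gene, had 265 and 373 at day 18, against 96.9 and 63.9 at day 14, a change of 1.80 ± 0.25 (adjusted p = 0.000243). Both kept their call with any 1 sample left out, and their days did not overlap. Rfx2, a factor of ciliary genes, had 207 and 633 at day 18, against 75.8 and 124 at day 14, a change of 1.74 ± 0.45 (adjusted p = 0.026) that was 0.97 with an adjusted p of 0.297 without day 18 sample 2. Brdt, the testis bromodomain protein, had 3575 and 2063 at day 18, against 778 and 721 at day 14 and a change of 1.84 ± 0.50 (adjusted p = 0.035), with an adjusted p of up to 0.213 when a sample was left out. Gtf2a1l, a germ cell form of the general factor TFIIA, had 2489 and 1418 at day 18, against 208 and 345 at day 14 and a change of 2.74 ± 0.57 (adjusted p = 0.00641), with an adjusted p of up to 0.0891 when a sample was left out. Tcfl5, a basic helix-loop-helix factor, changed by 1.52 ± 0.29, and Fhl4, a LIM-domain protein, by 3.20 ± 0.72. Those 2 reached adjusted p-values of 0.078 and 0.132 when a sample was left out. Bach1, named after its value was seen, was the gene called lower, at -1.15. Mybl1, the A-MYB factor of pachytene spermatocytes, was not called, with 351 and 405 at day 18, against 283 and 394 at day 14, a difference of 0.17 ± 0.55 (adjusted p = 0.916). Crem, whose activator form acts in spermatids, had 107 and 85.6 at day 18, against 74.2 and 50.7 at day 14, a difference of 0.53 ± 0.33 (adjusted p = 0.403). Ovol1, a repressor of transcription, had 413 and 419 at day 18, against 262 and 393 at day 14, a difference of 0.36 ± 0.25 (adjusted p = 0.479).

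The promoters of the called genes were searched for the letters that MYB, RFX and CREM family factors are known to bind, as a description of sequence only. The window runs from 250 bases before to 50 bases after the first start listed by RefSeq (assembly GRCm38.p6), and both strands were searched. Promoters were found for 471 of the 572 higher genes and for 101 of the 122 lower genes. The RFX letters GTTGCCA were in 44 of the 471 promoters of higher genes (9.34%) and in 3 of the 101 promoters of lower genes (2.97%), beside 4.46% of the 27025 promoters of the table. Of the axoneme genes called higher, 6 of 33 promoters (18.2%) held them. The MYB letters AACNGTT were in 6.37% of the promoters of higher genes, 5.94% of those of lower genes and 4.36% of the table. The cyclic AMP response element TGACGTCA was in 3.4%, 0.99% and 1.88%. The MYB letters and the response element read the same on both strands and were counted once. The RFX and MYB letters can share bases where they adjoin, and each was counted on its own. These shares were not tested, and a match is not evidence of binding.

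Of the named rising genes with such letters, 5 promoters are printed from the gene's own strand, 5′ to 3′, with the matches in capitals. They are shown because Ldhc, Actl7b, Tcp11, Spata4 and Spag6l stand for the isozyme, spermatid, pachytene and axoneme groups above.
Ldhc: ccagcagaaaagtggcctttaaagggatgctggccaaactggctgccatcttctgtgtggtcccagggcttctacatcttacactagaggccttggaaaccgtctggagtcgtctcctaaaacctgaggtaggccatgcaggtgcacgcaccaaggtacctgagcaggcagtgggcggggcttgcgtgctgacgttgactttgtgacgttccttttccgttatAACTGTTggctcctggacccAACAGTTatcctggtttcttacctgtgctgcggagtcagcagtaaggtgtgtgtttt
Actl7b: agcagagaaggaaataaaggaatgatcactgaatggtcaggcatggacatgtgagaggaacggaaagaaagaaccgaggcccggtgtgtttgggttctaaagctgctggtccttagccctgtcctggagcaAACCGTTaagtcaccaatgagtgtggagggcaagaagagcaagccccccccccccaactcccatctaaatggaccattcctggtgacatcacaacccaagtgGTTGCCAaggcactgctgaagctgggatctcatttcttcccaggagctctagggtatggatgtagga
Tcp11: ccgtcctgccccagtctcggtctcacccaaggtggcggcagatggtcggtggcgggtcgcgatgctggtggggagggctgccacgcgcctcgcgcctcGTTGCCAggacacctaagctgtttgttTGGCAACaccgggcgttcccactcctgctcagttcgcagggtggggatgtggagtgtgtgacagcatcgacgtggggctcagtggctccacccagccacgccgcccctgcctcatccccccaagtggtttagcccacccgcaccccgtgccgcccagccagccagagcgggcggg
Spata4: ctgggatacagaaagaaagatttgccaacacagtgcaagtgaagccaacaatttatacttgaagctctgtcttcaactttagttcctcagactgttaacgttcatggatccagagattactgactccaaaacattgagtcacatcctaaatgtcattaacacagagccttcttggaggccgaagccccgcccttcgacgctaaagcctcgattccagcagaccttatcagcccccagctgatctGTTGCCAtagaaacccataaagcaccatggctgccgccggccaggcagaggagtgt
Spag6l: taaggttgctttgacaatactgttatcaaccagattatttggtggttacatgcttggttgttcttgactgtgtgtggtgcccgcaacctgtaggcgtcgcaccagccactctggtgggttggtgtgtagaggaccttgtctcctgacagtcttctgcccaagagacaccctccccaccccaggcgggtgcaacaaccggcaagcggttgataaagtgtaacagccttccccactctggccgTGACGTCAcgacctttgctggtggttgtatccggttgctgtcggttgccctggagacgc
The Ldhc window (chr7:46861013-46861312, plus strand) holds the MYB letters at 27 and 7 bases before the start. The Actl7b window (chr4:56741376-56741675, minus strand) holds the MYB letters 119 bases and the RFX letters 17 bases before the start. The Tcp11 window (chr17:28080590-28080889, minus strand) holds the RFX letters 152 and 125 bases before the start, once on each strand. In the Spata4 window (chr8:54600531-54600830, plus strand) the RFX letters begin 6 bases before the start. In the Spag6l window (chr16:16829314-16829613, minus strand) the cyclic AMP response element begins 9 bases before the start.

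The machinery that pairs and recombines chromosomes gave 2 calls in this interval. Of 27 measured members of the list of synaptonemal complex, cohesin and recombination genes, 2 were called higher (7.41%) and none lower. Over all genes tested, 4.25% were called higher and 0.906% lower. The median change of the list was -0.08. Without day 18 sample 1, 1 was called higher and 3 lower. Psmc3ip, the HOP2 protein that assists strand exchange, had 372 and 434 at day 18, against 158 and 113 at day 14, a change of 1.48 ± 0.25 (adjusted p = 0.00148). Syce1, of the central element, had 4662 and 2869 at day 18, against 1414 and 1647 at day 14, a change of 1.25 ± 0.23 (adjusted p = 0.00255). In both genes the days did not overlap. Syce1 stayed under an adjusted p of 0.05 with any 1 sample left out, but its change was 0.90, under 2-fold, without day 18 sample 1. Sycp1, of the transverse filaments, had 935 and 605 at day 18, against 833 and 797 at day 14, a difference of -0.11 ± 0.54 (adjusted p = 0.944), and its days overlapped. Spo11, which makes the breaks that start recombination, had 2597 and 3176 at day 18, against 1531 and 1970.5 at day 14, a difference of 0.72 ± 0.30 (adjusted p = 0.172). Dmc1, the meiotic strand exchange protein, had 138 and 60.3 at day 18, against 159 and 179 at day 14, a difference of -0.77 ± 0.32 (adjusted p = 0.176). Hormad1 was not measured.

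Of 43 measured genes of the meiotic division, 2 were called higher (4.65%, against 4.25% of all genes tested), Ccna1 and Nek2. None was called lower (0.906% of all genes tested), and the median change of the list was 0.07. The counts were 1 to 4 higher and up to 1 lower when single samples were left out. Nek2, a centrosomal kinase, had 549 and 864 at day 18, against 317 and 292 at day 14, a change of 1.14 ± 0.27 (adjusted p = 0.0161) that was 0.82 with an adjusted p of 0.155 without day 18 sample 2. Cdk1, the kinase of entry into division, had 387 and 333 at day 18, against 448 and 336 at day 14, a difference of -0.11 ± 0.20 (adjusted p = 0.842). Cdc25c, its activating phosphatase, had 55.9 and 63.7 at day 18, against 94.4 and 73.1 at day 14, a difference of -0.39 ± 0.21 (adjusted p = 0.314). Of 43 measured genes of DNA replication and the mitotic cycle, none was called, and the median change was -0.26, while 3 were called lower without day 18 sample 1. Ccnb1 was not measured.

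Genes of spermatogonia and of meiotic entry were in short lists, in which 1 call among 17 measured members is 5.88%. Over all genes tested, 4.25% were called higher and 0.906% lower. A count of 0 or 1 in these lists is therefore not read as a result. Of 17 measured genes of differentiating spermatogonia, 1 was called higher and 1 lower, with a median change of -0.50, and 0 to 3 were called lower with single samples left out. Dmrtb1, a factor of the exit from the mitotic program, had 443 and 1907 at day 18, against 142 and 175 at day 14, a change of 2.44 ± 0.44 (adjusted p = 0.00243). Its day 18 samples were 4.31-fold apart, both above day 14. Usp26, an X-linked deubiquitinase, had 267 and 531 at day 18, against 711 and 896 at day 14 and a change of -1.05 ± 0.28 (adjusted p = 0.0354), and without day 18 sample 1 its change was -0.57 with an adjusted p of 0.342. Stra8, the gene that licenses meiotic entry, had 205 and 122 at day 18, against 352 and 294 at day 14. Its difference of -0.95 ± 0.27 (adjusted p = 0.0466) was under 2-fold, so it was not called, although both day 18 samples lay below both day 14 samples. Kit, the receptor of differentiating spermatogonia, had 109.7 and 56.6 at day 18, against 139.8 and 204 at day 14, a difference of -0.96 ± 0.34 (adjusted p = 0.107). None of 17 measured genes of undifferentiated spermatogonia was called, with a median of 0.12, among them Gfra1 with 53 and 47.5 at day 18, against 51.3 and 52.1 at day 14 and Zbtb16 with 155 and 169 at day 18, against 624 and 222 at day 14.

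**Figure D3:**
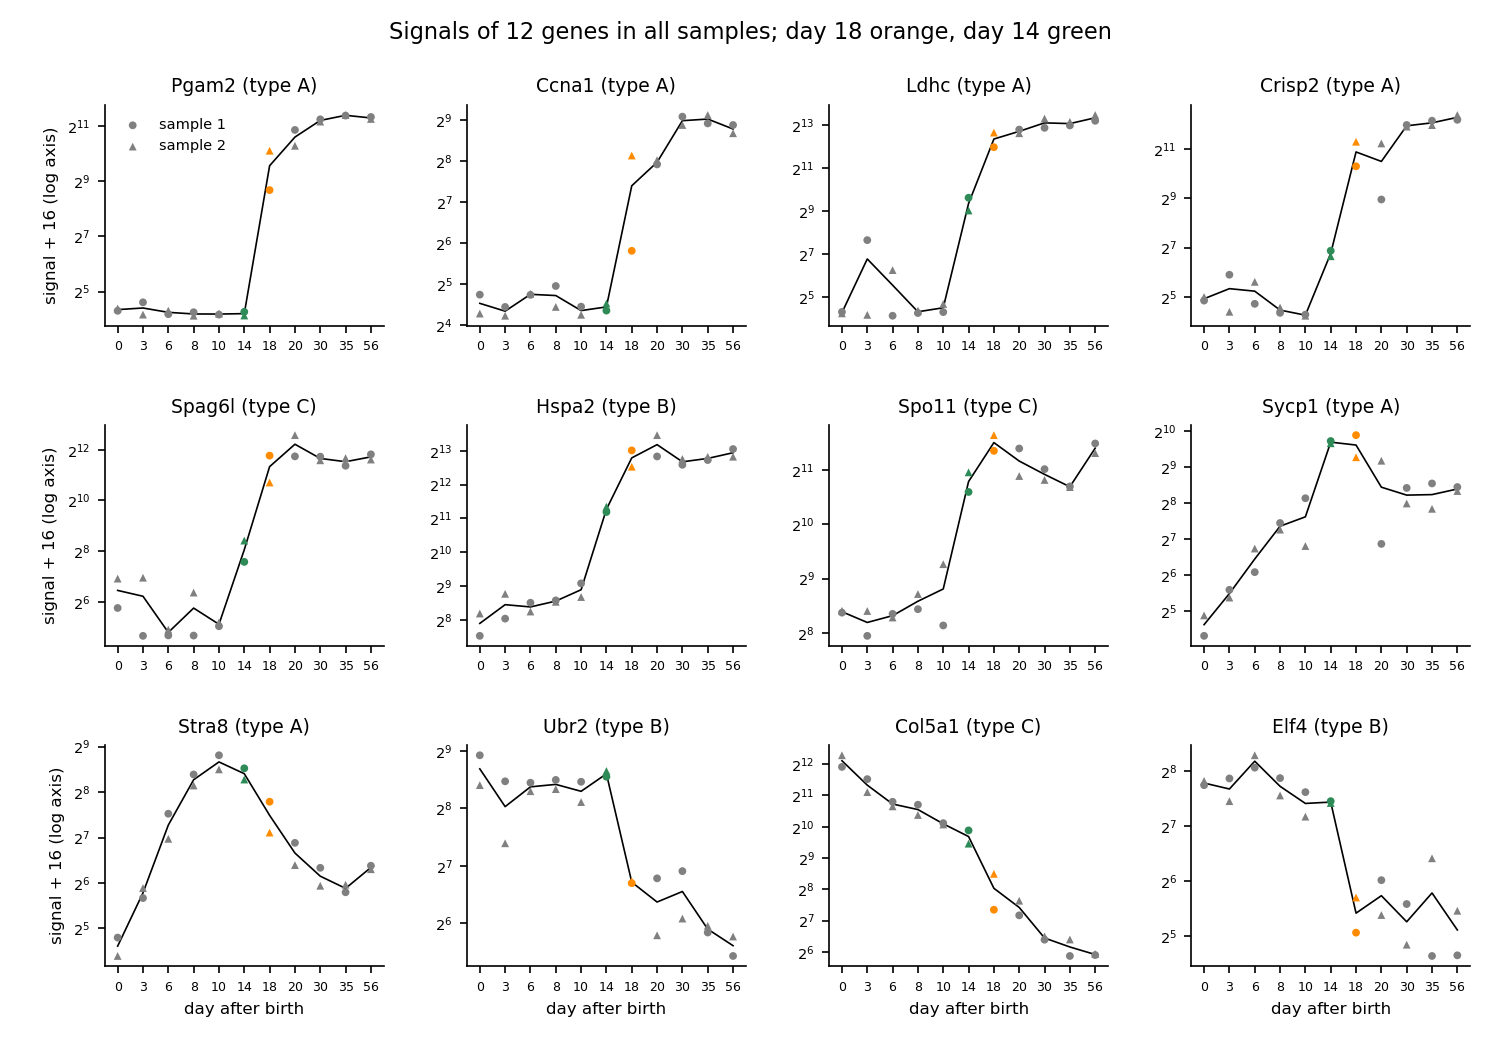
Signal + 16 (log axis) of 12 genes in all 22 samples from day 0 to day 56, with circles for sample 1, triangles for sample 2, day 18 in orange, day 14 in green and a line through the day means. Pgam2 and Ccna1 leave background between day 14 and day 18, Ubr2 and Elf4 lie lower at day 18 than at day 14, and the 2 days overlap for Sycp1.

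The clearest falls were small in number. Through the 4 fits that each left out 1 sample, 3 lower genes stayed called: Ubr2, Id1 and BC034090, of which Id1 and BC034090 were named after their values were seen. Ubr2, a ubiquitin ligase of the N-end rule pathway that spermatocytes need, had a signal of 87.8 and 90.3 at day 18, against 359 and 386 at day 14, a change of -1.89 ± 0.37 (adjusted p = 0.00395). The samples of each day were close together and the days far apart. Id1, an inhibitor of helix-loop-helix factors, had 33.4 and 37.7 at day 18, against 108 and 103 at day 14, a change of -1.24 ± 0.21 (adjusted p = 0.00116). BC034090 had 27.6 and 25.7 at day 18, against 206 and 159 at day 14, a change of -2.21 ± 0.33 (adjusted p = 0.000343).

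The other named falls lost their call in at least 1 of these 4 fits. Klhl29 had 11.7 and 21.8 at day 18, against 103 and 131 at day 14, a change of -2.04 ± 0.41 (adjusted p = 0.00514), and Slc6a17, a transporter family member, had 56.9 and 51.2 at day 18, against 197 and 244 at day 14, a change of -1.75 ± 0.35 (adjusted p = 0.00502). Their adjusted p-values reached 0.067 and 0.0692 when a sample was left out. For Fzd5, a Wnt receptor, the signals were 8 and 47.5 at day 18, against 136 and 125 at day 14, and the change of -1.91 ± 0.47 (adjusted p = 0.019) was -1.21 with an adjusted p of 0.209 without day 18 sample 1. Shisa8 had 15.4 and 49.4 at day 18, against 215 and 174 at day 14, a change of -2.21 ± 0.46 (adjusted p = 0.00629), and Rbm28 had 716 and 229 at day 18, against 1503 and 1594 at day 14, a change of -1.88 ± 0.54 (adjusted p = 0.0461). Without a sample, their adjusted p-values reached 0.0768 and 0.388. Map3k10 had 48.4 and 34 at day 18, against 272 and 206 at day 14, a change of -2.15 ± 0.62 (adjusted p = 0.047), with an adjusted p of up to 0.234 when a sample was left out. It changed by 0.42 when probe sets with suffixed names, which can bind several transcripts, were left out and another probe set took its place. Txndc5, Tet1 and Zfp799 changed by -1.80 ± 0.44, -1.71 ± 0.39 and -1.68 ± 0.43, with adjusted p-values of up to 0.157, 0.128 and 0.143 when a sample was left out.

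Genes of the extracellular matrix gave the lowest median of the lists. Of 48 measured members, none was called higher and 4 lower, with a median change of -0.71, and 45 of the 48 changes were negative. The share called lower was 8.33%, against 0.906% of all genes tested. With single samples left out, 1 to 9 members were called lower. The 4 genes encode fibrillar and basement membrane collagens. Col5a1 had 147 and 345 at day 18, against 928 and 688 at day 14, a change of -1.75 ± 0.32 (adjusted p = 0.00251). Col5a2 had 90.5 and 67.9 at day 18, against 175 and 329 at day 14, a change of -1.44 ± 0.29 (adjusted p = 0.00459). Col1a2 had 816 and 574 at day 18, against 1448 and 1993 at day 14, a change of -1.29 ± 0.25 (adjusted p = 0.00364). Col4a2 had 417 and 439 at day 18, against 1323 and 1009 at day 14, a change of -1.40 ± 0.34 (adjusted p = 0.0171). In each the days did not overlap, and each lost its call in at least 1 of the 4 fits, with adjusted p-values of up to 0.0528, 0.115, 0.0787 and 0.159 in that order. Col1a1 had 589 and 831 at day 18, against 934 and 2395 at day 14, a difference of -1.08 ± 0.69 (adjusted p = 0.427).

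Imprinted and fetal growth genes were called lower in 2 of 28 measured members and higher in none, with a median change of -0.61. Over all genes tested, 0.906% were called lower and 4.25% higher, against 7.14% called lower in this list. With a sample left out, 0 to 2 were called lower and up to 1 higher. Dlk1, a paternally expressed Notch-family ligand, had 153 and 166 at day 18, against 324 and 473 at day 14 and a change of -1.22 ± 0.34 (adjusted p = 0.042), with an adjusted p of up to 0.314 when a sample was left out. Igf1r, the receptor of insulin-like growth factors, had 462 and 1181 at day 18, against 1859 and 2053 at day 14, a change of -1.38 ± 0.35 (adjusted p = 0.0226). Day 18 sample 2 of Igf1r was the nearer one to day 14, and without day 18 sample 1 the change was -0.72 with an adjusted p of 0.267. Igf2 had 406 and 255 at day 18, against 476 and 629 at day 14, a difference of -0.74 ± 0.32 (adjusted p = 0.197).

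No marker list of a somatic cell type other than the matrix and junction lists held a called gene. Over all genes tested, 4.25% were called higher and 0.906% lower. Lists of this size can hold no gene called lower at that share, so the absence of calls is not read as a result. Sertoli cells, which nurse the germ cells, had 38 measured markers with a median change of -0.48. Of these changes, 27 were negative and 11 positive. Their summed signal on type A, with 27 of the markers, was 14702 and 9919.6 at day 18, against 17973 and 18048 at day 14. For the 3 on type B it was 1511 and 1574 at day 18, against 1835 and 1542 at day 14, so the days overlapped. For the 8 on type C it was 2962 and 3767 at day 18, against 3797 and 4154 at day 14. Clu, an abundant Sertoli product, had 2757 and 1918 at day 18, against 3265 and 3599 at day 14, a difference of -0.57 ± 0.25 (adjusted p = 0.197). Wt1, Sox9 and Gata4 differed by -0.72 ± 0.34, -0.36 ± 0.26 and -0.95 ± 0.43, and Amh, the fetal and neonatal Sertoli hormone, was below a signal of 50, with 15.6 and 19.2 at day 18, against 15.9 and 15.1 at day 14. Leydig cells, which make androgens, had 20 measured markers with a median of -0.23, and a summed signal on type A of 4347 and 3512 at day 18, against 5205 and 4433 at day 14. Star, the cholesterol transporter of steroid synthesis, had 46.9 and 191 at day 18, against 386 and 286 at day 14, a difference of -1.61 ± 0.52 (adjusted p = 0.0755). Cyp17a1 and Cyp11a1, enzymes of that synthesis, differed by -0.97 ± 0.31 and -0.18 ± 0.30. Peritubular myoid cells had 17 measured markers with a median of -0.52, with Acta2, smooth muscle actin, at 817 and 381 at day 18, against 1134 and 1017 at day 14. Endothelial and macrophage markers had medians of -0.20 and -0.28 over 18 and 19 genes. Up to 3 Sertoli, 4 myoid, 3 endothelial and 1 Leydig marker were called lower when a sample was left out. All of these medians were negative, as was that of the matrix genes. Their part in the called falls was not tested.

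Of 28 measured genes of the blood-testis barrier and of cell junctions, 1 was called higher and 1 lower (3.57% each). Over all genes tested the shares were 4.25% and 0.906%, and the median change of this list was -0.39. Without day 18 sample 1, 7 were called lower and none higher, and over all 4 omissions the lower count ran from 0 to 7. Nectin3, the adhesion protein on the germ cell side of the Sertoli-spermatid junction, had 746 and 341 at day 18, against 90.6 and 139 at day 14 and a change of 2.02 ± 0.40 (adjusted p = 0.00398), with an adjusted p of up to 0.0731 when a sample was left out. Gja1, the gap junction protein connexin 43, had 1034 and 533 at day 18, against 1647 and 1455 at day 14, a change of -1.04 ± 0.25 (adjusted p = 0.0187) that was -0.57 with an adjusted p of 0.215 without day 18 sample 2. Cldn11, a claudin of the barrier, had 582 and 361 at day 18, against 639 and 798 at day 14, a difference of -0.62 ± 0.24 (adjusted p = 0.147).

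X-linked genes had a lower median change than autosomal genes. Of 413 X-linked genes tested, 16 were called lower (3.87%) and 1 higher (0.242%), with a median change of -0.53, and 351 of the 413 changes were negative. Of 13000 autosomal genes, 106 were called lower (0.815%) and 569 higher (4.38%), with a median change of -0.08. With each array scaled to its median, the X-linked median was -0.46 and the autosomal median about 0. The number of X-linked genes called lower ran from 1 to 38 and of those called higher from 1 to 2 with single samples left out. The difference between the chromosomes was not tested. Elf4, an X-linked ETS factor, had 17.4 and 36 at day 18, against 159 and 155 at day 14 and a change of -2.05 ± 0.46 (adjusted p = 0.0117), with an adjusted p of up to 0.0907 when a sample was left out. Acot9, a mitochondrial thioesterase, had 84.1 and 29.6 at day 18, against 169.8 and 148 at day 14, a change of -1.37 ± 0.28 (adjusted p = 0.00696) that was -0.80 with an adjusted p of 0.0797 without day 18 sample 2. Armcx4 had 39.1 and 76.7 at day 18, against 214 and 211 at day 14, a change of -1.68 ± 0.42 (adjusted p = 0.0227), with an adjusted p of up to 0.167 when a sample was left out, and changed by 1.07 when suffixed probe sets were left out. Tsga8, a haploid germ cell gene, was the X-linked gene called higher, with 292 and 106 at day 18, against 10.7 and 22.5 at day 14 and a change of 2.60 ± 0.35 (adjusted p = 0.000139). Over all genes tested, 4.25% were called higher and 0.906% lower, beside 2.44% each in the sex body and chromatin list given below. Counts of 0 or 1 in the short lists that follow are therefore not read as a result. The 3 measured Y-linked genes had a median change of -0.85 and none was called, against up to 1 lower with a sample left out. In the list of sex body and chromatin genes, 41 were measured, 1 was called higher (Brdt) and 1 lower (Ubr2), with a median of -0.08, and omitting single samples gave 0 or 1 higher and 1 or 2 lower.

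**Figure D4:**
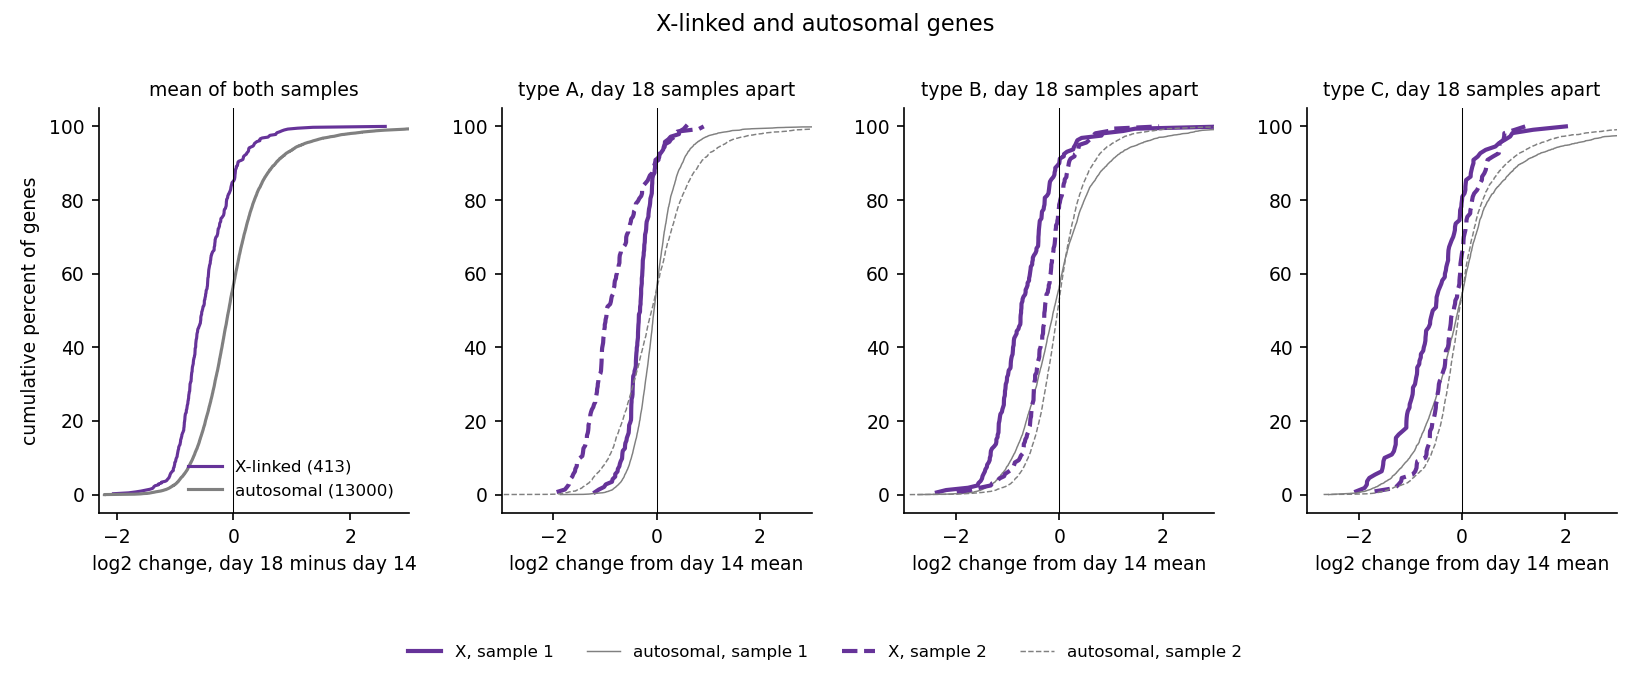
Cumulative percent of genes (vertical axis) against log2 change (horizontal axis), for X-linked genes (purple) and autosomal genes (grey): the left panel gives the change between day 18 and day 14 over both samples, and the others give each day 18 sample against the day 14 mean on types A, B and C (solid for sample 1, dashed for sample 2). The X-linked curve is shifted to a median of -0.53, and the farther-shifted sample is sample 2 on type A and sample 1 on types B and C.

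For the called genes, the 2 day 18 samples disagreed in how far they lay from day 14 and not in direction. On type A, the median change of the 189 higher genes from the day 14 mean was 1.14 in day 18 sample 1 and 1.99 in day 18 sample 2. On type B the order was turned round, with 2.30 in sample 1 and 1.32 in sample 2 over 200 genes. Type C followed type B, with 2.72 in sample 1 and 1.88 in sample 2 over 183 genes. At day 20 the same genes had medians of 2.03 and 1.96 on type A, 2.21 and 2.12 on type B, and 2.69 and 2.64 on type C. The farther-moved day 18 sample of each type was thus at about the level of both day 20 samples, and the other one lay between day 14 and day 20. These genes were chosen on the mean of both day 18 samples, which favours genes with a shared direction. The shared direction and the medians therefore describe them and are no test.

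Gene by gene, the order was nearly uniform within a type. Day 18 sample 2 was the higher one in 186 of the 189 higher genes of type A. Day 18 sample 1 was the higher one in 194 of 200 on type B and in 175 of 183 on type C. The median difference, sample 1 minus sample 2 on the log2 scale, was -0.83 on type A, 0.89 on type B and 0.91 on type C. The lower genes showed the mirror image, with medians of 0.72, -0.68 and -0.64 over 41, 36 and 45 genes. X-linked genes, which were grouped by chromosome and not by their change, gave medians of 0.53, -0.48 and -0.41. In 120 of 143 X-linked genes on type A, sample 1 was the higher one, against 31 of 160 on type B and 24 of 110 on type C. Over all genes tested, the median differences were 0.06, -0.08 and -0.04.

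**Figure D5:**
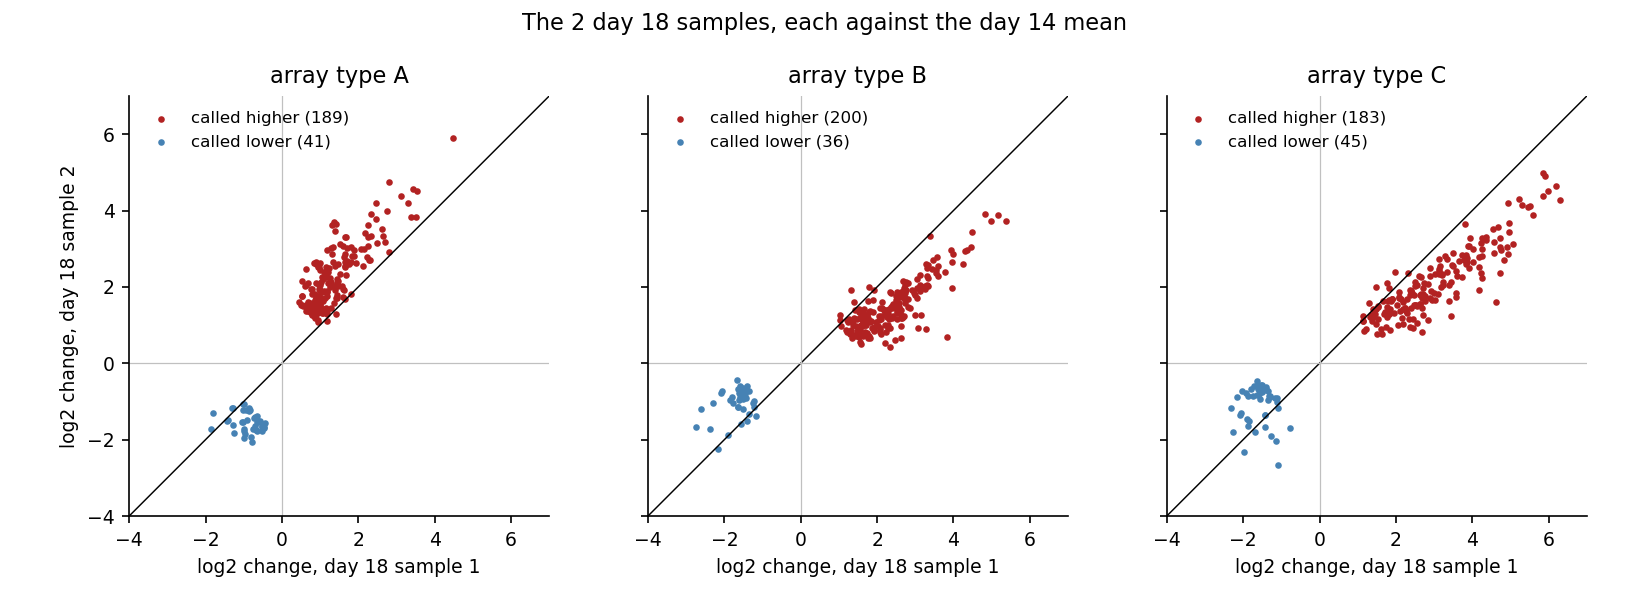
Change from the day 14 mean (log2) in day 18 sample 2 (vertical axis) against day 18 sample 1 (horizontal axis) for the genes called higher (red) and lower (blue) on array types A, B and C; the line marks equal change. Red points lie above the line on type A (186 of 189) and below it on types B (194 of 200) and C (175 of 183).

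Genes with probe sets on more than 1 array type were compared as well. Across 1463 genes measured on types A and B, the difference between day 18 sample 1 and sample 2 on one type was correlated at -0.24 with that on the other. The correlation was -0.16 over 1354 genes on types A and C and 0.22 over 1691 genes on types B and C. At day 14 these correlations were -0.09, -0.06 and 0.08. They are across genes that share the same arrays, and are given as a description. The actin control of the arrays (3′ probe set) also turned round by type: on type A it was 1187 and 4575 at day 18, against 1697 and 4937 at day 14, while on type B it was 7727 and 2341 at day 18, against 9104 and 3168 at day 14. On type C it was 11957 and 3619 at day 18, against 17291 and 5285 at day 14. At both days, sample 1 was therefore the lower one for actin on type A and the higher one on types B and C. The Gapdh control (3′ probe set) did not follow this order: on type A it was 1454 and 1199.7 at day 18, against 2089 and 2119 at day 14. On type B it was 2419 and 2911 at day 18, against 4494 and 4348 at day 14, and on type C it was 3954 and 5172 at day 18, against 9271 and 8399.6 at day 14. Thus at day 18 Gapdh was higher in sample 1 on type A and in sample 2 on types B and C, while the day 14 samples were close on types A and B. The part of these controls in the differences between the samples was not tested.

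Among the called genes, 242 differed by more than 2-fold between the day 18 samples, against 25 between the day 14 samples. Of the 572 higher genes 216 did so, and of the 122 lower genes 26. On type A the shares of all genes tested with such a difference were 7.16% at day 18 and 1.82% at day 14, on type B 9.56% and 5.09%, and on type C 13.8% and 9.41%. Among the 11 days, day 20 had the largest count with 2345 genes (17.4%), followed by day 0 with 1926, and day 30 the smallest with 445 (3.3%). The called genes with the widest day 18 samples were Pom121l12, with 363 and 26.9 at day 18, against 8.8 and 12.5 at day 14, and Pabpc6, a testis poly(A)-binding protein copy, with 1307 and 148 at day 18, against 54.9 and 24.7 at day 14. In these, in Ccna1 and in Dyrk3, a kinase with 685 and 119.7 at day 18, against 53.8 and 59.2 at day 14, both day 18 samples were above both day 14 samples. The change of Pom121l12 was 2.26 ± 0.61 (adjusted p = 0.0334), and 0.69 with an adjusted p of 0.386 without day 18 sample 1. That of Pabpc6 was 3.12 ± 0.73 (adjusted p = 0.0147), and 1.61 with an adjusted p of 0.199 without that sample. That of Dyrk3 was 2.09 ± 0.48 (adjusted p = 0.0138), and 0.91 with an adjusted p of 0.155 without it. The remaining one of the 5, 1700030C12Rik, had 1474 and 274 at day 18, against 36.6 and 45.3 at day 14, a change of 3.53 ± 0.60 (adjusted p = 0.00126).

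Among genes with a mean signal of at least 125 at day 18, some of the widest differences were present at day 14 too. Srrm2, a splicing factor, had 963 and 61.1 at day 18, against 1699 and 114 at day 14, and Rif1, a factor of replication timing and repair, had 1362 and 164 at day 18, against 1027 and 158 at day 14. For Rasal2 the signals were 272 and 22 at day 18, against 338 and 36 at day 14, and for 2900060B14Rik they were 2923 and 187 at day 18, against 1898 and 399 at day 14. In these genes sample 1 was the higher one on both days, and none was called. A difference at day 18 without one at day 14 was seen in Scx, a helix-loop-helix factor of tendon and Sertoli cells, with 339.8 and 24.6 at day 18, against 389 and 357 at day 14. It was also seen in 1110038B12Rik, with 271 and 24.9 at day 18, against 277 and 301 at day 14, and in 1700030J22Rik, with 418 and 37.4 at day 18, against 44.4 and 31.7 at day 14. Aym1, a gene named for activating meiotic promoters in yeast, had 39 and 383 at day 18, against 4.5 and 64.1 at day 14.

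The step was compared with its neighbours, which share its samples. From day 10 to day 14, also 4 days, 95 genes were called (0.705%), 89 higher (0.661%) and 6 lower (0.0445%), and 6.27% of genes had an unadjusted p under 0.05. From day 18 to day 20, limma called 0 genes, while 1546 genes (11.5%) had an unadjusted p under 0.05, against 2704 (20.1%) for day 18 against day 14. The difference between the step to day 18 and the step to day 14 was itself tested, and 11 genes were called (0.0817%), all with the larger change in the later step. With single samples left out, this count ran from 0 to 63. Pgam2 changed by 5.18 ± 0.32 between day 14 and day 18 and by 0.01 between day 10 and day 14, a difference of 5.17 ± 0.55 (adjusted p = 0.000611). For Tcp11 the difference between the steps was 2.96 ± 0.51 (adjusted p = 0.0324), for Cmtm2b 4.39 ± 0.72 (adjusted p = 0.0214) and for Atp6ap1l 4.52 ± 0.80 (adjusted p = 0.0336). Uncharacterised loci among the 11 were 1700020D05Rik, with 5.82 ± 0.75 (adjusted p = 0.00315), 1700026J12Rik, with 5.45 ± 0.84 (adjusted p = 0.0163), 1700003H04Rik, with 5.02 ± 0.80 (adjusted p = 0.0186), and 1700110I01Rik, with 4.56 ± 0.73 (adjusted p = 0.0186). Ldhc, Hspa2 and Spag6l had already changed by 4.83, 2.39 and 2.88 from day 10 to day 14, and were called in that step too.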

How the data were processed

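The authors deposited linear signal intensities for the probe sets of every array, scaled to a mean of 125 per the labels. The array software is not given in the sources used here. The mean of each array after trimming 2% at each end was checked. Of 36899 probe sets, 198 were controls and 29131 named 1 gene in the deposited platform annotation, 29044 of them found in the RefSeq gene table (GRCm38.p6), which gave chromosomes.

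A probe set was kept if 2 or more of the 22 arrays of its type reached 50 (26941 kept), and the brightest stood for its gene (13472 genes). Each type was fitted alone on log2(signal + 16) with limma 3.58.1 under R 4.3.3 (lmFit on 11 day means, eBayes with trend, 11 residual degrees of freedom before moderation). The p-values are two-sided and Benjamini-Hochberg adjusted over all genes of the 3 types. The fit was tested on simulated data.

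The 27 gene lists, the tests and the members were chosen with earlier results of these data known. The rule for named genes took the 12 largest rises and falls among called genes with non-overlapping samples (clone names left out), up to 4 called members per list, textbook genes of the testis, the 10 genes (mean signal at least 125 at day 18) and 5 called genes with the widest day 18 samples, 3 called rises and falls on the X chromosome, and 5 genes per direction with a called difference between steps. Genes outside it are marked in the text. There were 18 alternative settings of the fit. Lists not described in the report gave no calls: erythroid (7 genes, median 0.01), immediate-early response (23, -0.49, up to 1 lower with a sample left out) and epididymis, fat and skeletal muscle (11, 0).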

Additional observations from a re-analysis of the deposited data

How the results depend on the processing

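Estimating the spread from days 14 and 18 only gave 304 called genes (292 higher, 12 lower), and from days 10, 14, 18 and 20 it gave 271 (260 higher, 11 lower); leaving out days 0 and 20 gave 198 lower. A pseudocount of 64 left 49 lower genes and median scaling left 52. With 1 sample left out, the called genes ranged from 332 to 773, the higher ones from 305 to 543 and the lower ones from 23 to 291. Requiring the call without each day 18 sample in turn, chosen after seeing the data, left 263 higher and 12 lower. The genes whose steps differed numbered 7 with a pseudocount of 1, 17 with 64, 33 with a floor of 32, 5 without suffixed probe sets, 0 with the spread of days 10, 14, 18 and 20, 21 without days 0 and 20, and 0 to 63 with 1 sample left out; with days 14 and 18 only, this difference could not be fitted. Between the day 18 samples, 67 genes differed over 4-fold, and 483 over 2-fold with a pseudocount of 64.

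The sample numbers were not taken as pairs. Deviations of same-numbered day 14 and day 18 samples correlated at 0.14, 0.21 and 0.15 on types A, B and C, but over the 55 pairs of days the lowest values were -0.21, -0.01 and -0.06. With the replicate block, 761 genes were called (611 higher, 150 lower).

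Of 84 called named genes, 82 kept their sign in all 18 alternative settings of the fit. Without suffixed probe sets, Map3k10 changed by 0.42, Armcx4 by 1.07 and the uncalled 1110038B12Rik by 0.23. Among uncalled values, Acrv1 moved to 0 with a floor of 32, Cdk1 and Hsd3b6 to 0 and Gfra1 to 0.01 with median scaling, and Gfra1 to 0.01 with quantile normalization. With 1 sample left out, these values changed sign: the median of undifferentiated spermatogonia from -0.04 to 0.09, 1700030J22Rik from -0.01 to 3.01, 2900060B14Rik from -2.14 to 1.72, Acrv1 from -0.30 to 0.17, Cdk1 from -0.30 to 0.09, Cyp11a1 from -0.50 to 0.13, Dazl from -0.89 to 0.12, Gfra1 from -0.09 to 0.03, Hsd3b6 from -0.51 to 0.37, Insl3 from -0.49 to 0.09, Mybl1 from -0.06 to 0.39, Prm2 from -0.04 to 0.19, Rasal2 from -1.84 to 1.09, Rif1 from -1.24 to 1.70, Srrm2 from -2.64 to 1.08, Sycp1 from -0.42 to 0.20, Sycp3 from -0.43 to 1.35 and Tnp1 from -0.16 to 0.47. The cause of these changes was not tested beyond the fewer samples or other probe sets used.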
